A study of Homo sapiens with 9 samples.

Results

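The 51 interferon-stimulated genes described here are genes whose transcription is known to rise when cells receive interferon, from the transcription factors STAT2 and the IRFs to antiviral effectors such as the OAS, IFIT, MX and GBP proteins. They were chosen by symbol, and all 51 had a row among the 62257 rows of the deposited count and FPKM tables. A549, a human lung adenocarcinoma cell line, was exposed for 96 h to apoptotic vesicles (apoEVs) or to PBS before mRNA sequencing. The groups were sts (vesicles after apoptosis induced by staurosporine, a broad kinase inhibitor; 3 libraries), ddp (vesicles after apoptosis induced by cisplatin, a platinum compound that crosslinks DNA; 3 libraries) and control (PBS; 3 libraries). The labels do not say which cells shed the vesicles. All groups are the same line in the same medium, and no group received staurosporine or cisplatin without vesicles. Nothing states that replicates were separate cultures, so p-values reflect differences among these libraries that may be only technical.

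Interferons are secreted proteins that bind receptors on the same or neighbouring cells. JAK kinases at the receptor then phosphorylate STAT proteins. For type I and III interferons, STAT2 and IRF9 take part in a complex that binds the interferon-stimulated response element, whose core letters are GAAA, any 2 bases, and GAAA again. Interferon gamma acts mainly through the gamma-activated site, TTCNNNGAA. Many of these genes are also transcribed at a low basal level, and IRF1 can switch on several of them directly.

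Promoter windows of 300 bases, from 250 bases before to 50 after a RefSeq transcription start, were found for 41 of the 51 genes in 53 windows. The response-element core, searched on both strands, occurred in the windows of 29 of these 41 genes (70.7%), against 1195 of 27305 genes in the whole RefSeq table (4.38%). TTCNNNGAA, which reads the same on both strands, occurred in 12 of 41 (29.3%), against 2560 of 27305 (9.38%), and the 2 motifs overlapped each other in the windows of 5 genes. The first 4 windows below are those of the called genes with the largest fold change that hold the core, and OAS3, which moved the other way, was added after its values were seen. All are RefSeq sequences of GRCh38.p14, 5′ to 3′ on the gene's strand, and capitals mark each match to the core or to its reverse complement. BST2 lies at chr19:17405581-17405880 (minus strand), IFI44 at chr1:78649539-78649838 (plus), IFIT3 at chr10:89327747-89328046 (plus), MX1 at chr21:41420308-41420607 (plus) and OAS3 at chr12:112938224-112938523 (plus). Where a gene had several windows, the one with the most matches is shown.
BST2: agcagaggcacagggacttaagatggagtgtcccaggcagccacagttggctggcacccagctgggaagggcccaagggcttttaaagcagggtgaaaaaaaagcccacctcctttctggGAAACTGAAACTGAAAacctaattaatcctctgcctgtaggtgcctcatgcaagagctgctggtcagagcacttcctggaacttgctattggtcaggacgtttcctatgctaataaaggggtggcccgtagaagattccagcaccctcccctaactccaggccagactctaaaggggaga
IFI44: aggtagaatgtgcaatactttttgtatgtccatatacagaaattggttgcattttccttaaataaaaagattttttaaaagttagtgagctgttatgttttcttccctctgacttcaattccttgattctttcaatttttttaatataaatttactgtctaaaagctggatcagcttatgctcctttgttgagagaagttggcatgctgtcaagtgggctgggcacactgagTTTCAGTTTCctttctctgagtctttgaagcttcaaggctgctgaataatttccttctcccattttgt
IFIT3: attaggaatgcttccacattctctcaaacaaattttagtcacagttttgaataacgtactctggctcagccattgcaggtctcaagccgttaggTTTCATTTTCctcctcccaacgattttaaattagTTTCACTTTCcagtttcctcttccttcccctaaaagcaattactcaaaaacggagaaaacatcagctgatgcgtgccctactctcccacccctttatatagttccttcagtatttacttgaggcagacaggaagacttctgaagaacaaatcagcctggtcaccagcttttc
MX1: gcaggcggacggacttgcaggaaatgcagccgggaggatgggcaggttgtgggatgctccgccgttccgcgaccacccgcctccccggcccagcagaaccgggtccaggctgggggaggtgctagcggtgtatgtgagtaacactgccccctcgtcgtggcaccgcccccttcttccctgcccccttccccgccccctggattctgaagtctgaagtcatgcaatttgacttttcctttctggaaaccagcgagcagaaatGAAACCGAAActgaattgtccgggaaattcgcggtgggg
OAS3: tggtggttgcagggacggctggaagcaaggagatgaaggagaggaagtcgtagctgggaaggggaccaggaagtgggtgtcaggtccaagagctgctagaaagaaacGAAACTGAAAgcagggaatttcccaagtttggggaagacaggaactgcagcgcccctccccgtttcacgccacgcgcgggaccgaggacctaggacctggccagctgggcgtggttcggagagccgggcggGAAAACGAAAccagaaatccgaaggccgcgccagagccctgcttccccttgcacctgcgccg
The BST2 window held overlapping matches from 130 to 115 bases before the start, and the OAS3 window held a match at 143 and another at 12 bases before it. OAS3 was lower with sts vesicles and the other 4 were higher. The windows shown were picked by fold change or direction, so they do not tell how the core relates to direction. Among genes with a window, the core was present in 15 of the 22 called higher with sts vesicles and in 9 of the 12 not called. The windows of STAT2, IRF1, SP100, SAMD9L, HERC6, CMPK2 and UBE2L6, all called higher with sts vesicles, did not hold these letters.

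Library totals were 13799950 to 14816996 counts in sts, 15949255 to 16526399 in ddp and 14356195 to 15492993 in control. Of the 51 genes, 44 had enough counts to be tested, 34 of them with enough counts in every group. IRF7, OAS2, BST2 and IFI44 passed the filter on low counts through the sts libraries alone. Another 6 (OASL, CMPK2, GBP1, MX1, IFITM1 and TRIM22) passed through sts and 1 other group, so these 10 were kept partly because they were high with sts vesicles. Counts below are therefore given also over the 34. Across the 3 groups 36 genes differed by edgeR's quasi-likelihood test with Benjamini-Hochberg adjustment, on a background of 45.1% of the 16947 genes tested.

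Levels spanned more than 3 orders of magnitude on the deposited FPKM scale, which divides counts by gene length. For some genes the deposited length is far above the exon bases in GENCODE v29 (OAS1, 13021 against 4947), so the order of genes depends on it. LGALS3BP, a secreted galectin-binding glycoprotein, was highest, with 43.1 ± 3.69 FPKM in sts, 33.2 ± 3.14 in ddp and 31.8 ± 2.42 in control (SD, n = 3 each). IFITM2, a membrane protein that restricts viral entry, had 28.5 ± 3.08 FPKM in sts, 23.0 ± 1.43 in ddp and 23.5 ± 2.79 in control. IFI35, a cytoplasmic leucine zipper protein, had 23.6 ± 0.362 FPKM in sts, 17.8 ± 0.893 in ddp and 20.7 ± 0.351 in control. UBE2L6, the conjugating enzyme for ISG15, had 18.1 ± 1.54 FPKM in sts, 15.1 ± 0.616 in ddp and 10.1 ± 0.138 in control. IFI6, a mitochondrial and endoplasmic reticulum protein, had 20.3 ± 3.37 FPKM in sts, 9.63 ± 1.69 in ddp and 12.1 ± 2.55 in control. UBE2L6 and IFI6 overlapped in sts and in control, while in ddp every UBE2L6 value was above every IFI6 value. At the other end, XAF1 averaged 0.00876 FPKM over all libraries. The FPKM values of the 51 genes summed to 269 to 282 in sts, 198 to 213 in ddp and 198 to 208 in control, so the sts libraries lay above the other 6 and the ddp and control libraries overlapped. In such bulk RNA a change in every cell and a change in a few cells cannot be told apart.

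**Figure D1:**
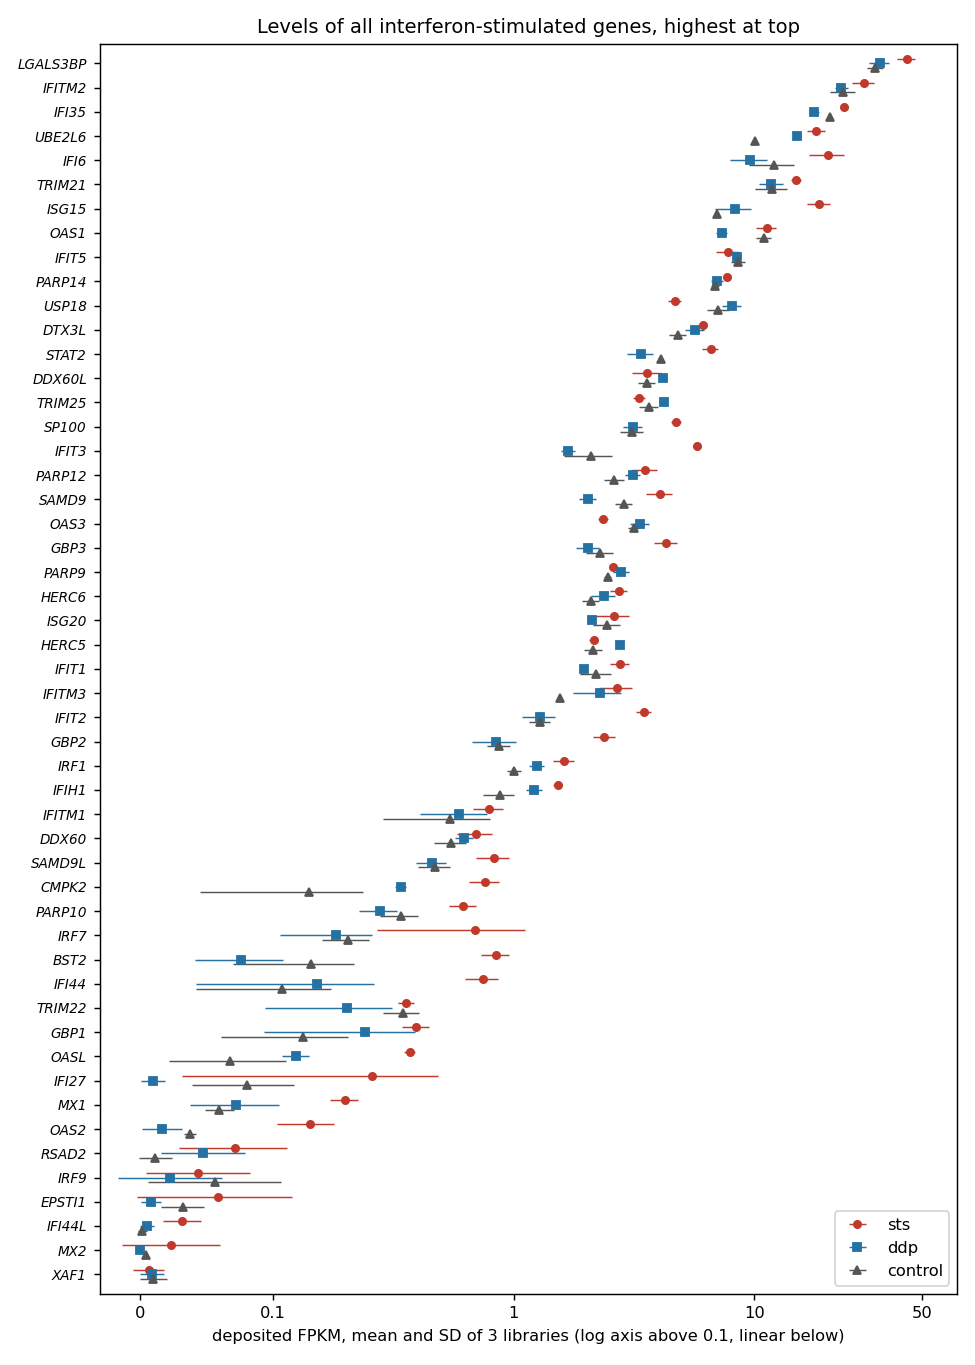
Deposited FPKM (x axis, log scale above 0.1 and linear below) of each of the 51 interferon-stimulated genes (y axis), as mean and SD of 3 libraries for sts, ddp and control. LGALS3BP stands at the top and XAF1 at the bottom, and for many genes in the middle and lower part the sts point lies to the right of the other 2.

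With sts vesicles, 29 of the 44 tested genes were higher than in control (65.9%) and 2 were lower (4.55%), on a background of 15.9% of all tested genes higher and 16.8% lower (32.8% in either direction). Their median log2 fold change was 0.592, against 0.013 over all genes. Over the 34 genes with counts in every group, 21 were higher and 2 lower, with a median of 0.424. IFIT3 rose 2.81-fold, GBP2 2.76-fold, IFIT2 2.73-fold and ISG15 2.68-fold, while LGALS3BP, the most abundant, rose 1.37-fold. Libraries did not overlap, all sts above all control, for 30 genes, on a background of 21.6%.

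Values per library are CPM, counts scaled to the size of each library with TMM factors, listed for replicates 1, 2 and 3, and a bare value beside an adjusted p is a log2 fold change. Among the regulators, STAT2, a transcription factor of the type I and III response, had 43.6, 38.0 and 43.4 CPM with sts vesicles, 20.6, 23.7 and 18.7 CPM with ddp vesicles and 26.0, 25.4 and 25.5 CPM in control. Every sts library lay above the others, and the ddp libraries lay just below control. The rise with sts vesicles was 1.63-fold (log2 fold change 0.70, SE 0.101, adjusted p = 1.3e-06). IRF1, an early interferon gamma target that is itself an activator, had 19.2, 22.7 and 18.9 CPM with sts vesicles, 16.4, 14.1 and 15.7 CPM with ddp vesicles and 11.5, 12.7 and 13.0 CPM in control, with groups that did not overlap (log2 fold change 0.70, SE 0.125, adjusted p = 3.69e-05 for sts over control). IRF1 shares 22.0% of its exon bases with genes on the opposite strand. IRF7, the factor that amplifies interferon alpha production, had 3.09, 1.62 and 0.845 CPM with sts vesicles, 0.250, 0.609 and 0.572 CPM with ddp vesicles and 0.651, 0.547 and 0.416 CPM in control. Its sts libraries were above control but spread more than 3-fold among themselves (log2 fold change 1.76, adjusted p = 0.006). Without sts replicate 1 the IRF7 value was 1.17 with adjusted p = 0.138, and 1.35 with adjusted p = 0.0747 against ddp.

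The IFIT genes encode proteins that bind foreign RNA, and the 4 lie close together on the plus strand of chromosome 10 (hg38, from IFIT2 at 89283694 to the end of IFIT5 at 89421605). IFIT3 had 31.1, 30.2 and 28.8 CPM with sts vesicles, 8.19, 8.29 and 9.21 CPM with ddp vesicles and 9.11, 13.4 and 9.51 CPM in control, and sts libraries stood clear of both other groups (log2 fold change 1.49, SE 0.133, adjusted p = 1.1e-10). IFIT2 had 15.5, 14.3 and 16.4 CPM with sts vesicles, 4.56, 5.91 and 6.23 CPM with ddp vesicles and 6.12, 4.99 and 5.76 CPM in control, again with sts apart and ddp overlapping control (log2 fold change 1.45, SE 0.165, adjusted p = 1.76e-08). IFIT1, which recognises viral RNA caps, had 13.3, 14.2 and 11.7 CPM with sts vesicles, 8.88, 8.96 and 9.47 CPM with ddp vesicles and 9.31, 9.44 and 12.1 CPM in control. Its sts and control libraries overlapped and it did not pass the test (log2 fold change 0.35, SE 0.146, adjusted p = 0.0671). IFIT5 did not pass either (−0.12, adjusted p = 0.375), so 2 of the 4 were called.

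The OAS family makes the short oligoadenylates that activate RNase L. OAS1, OAS3 and OAS2 lie in this order on the plus strand of chromosome 12 (OAS1 112905856 to 112933219, OAS3 112938051 to 112976460, OAS2 112978395 to 113011723), and each had its own pattern. OAS1 had 138, 147 and 164 CPM with sts vesicles, 94.3, 101 and 91.3 CPM with ddp vesicles and 135, 141 and 156 CPM in control, with sts overlapping control (adjusted p = 0.675). OAS3 had 45.5, 41.2 and 43.6 CPM with sts vesicles, 58.9, 66.9 and 56.4 CPM with ddp vesicles and 59.0, 53.9 and 59.3 CPM in control, with every sts library below the rest (log2 fold change −0.40, SE 0.0870, adjusted p = 0.000443). OAS2 had counts of only 20, 20 and 30 in sts, 5, 0 and 4 in ddp and 6, 6 and 7 in control, and was called higher with sts vesicles (log2 fold change 1.90, SE 0.542, adjusted p = 0.00643), though not without sts replicate 3 (adjusted p = 0.0513). OASL, a family member without synthetase activity that lies elsewhere on chromosome 12, had 2.24, 2.43 and 2.46 CPM with sts vesicles, 0.688, 0.792 and 0.889 CPM with ddp vesicles and 0.325, 0.752 and 0.208 CPM in control (log2 fold change 2.45, SE 0.445, adjusted p = 5.01e-05, and 3.09 without control replicate 2).

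Among other antiviral effectors, MX1, a dynamin-like GTPase, had 3.09, 3.98 and 3.87 CPM with sts vesicles, 1.50, 0.609 and 1.78 CPM with ddp vesicles and 0.976, 0.958 and 1.32 CPM in control and was higher with sts vesicles (log2 fold change 1.74, SE 0.349, adjusted p = 0.000177). CMPK2, a mitochondrial nucleotide kinase, had 3.09, 3.17 and 3.94 CPM with sts vesicles, 1.44, 1.58 and 1.46 CPM with ddp vesicles and 1.11, 0.342 and 0.416 CPM in control. Its 3 groups followed each other without overlap, sts above ddp above control (sts over control log2 fold change 2.42, SE 0.382, adjusted p = 6.11e-06, and 3.12 without control replicate 1). BST2, or tetherin, which holds budding virions at the membrane, had counts of 14, 12 and 15 in sts, 1, 1 and 2 in ddp and 1, 3 and 3 in control, and its log2 fold change of 2.52 (adjusted p = 0.00373) rests on those few reads. SAMD9L, a relative of SAMD9, was higher at 0.82 (adjusted p = 0.00575). ISG20, an RNA exonuclease, overlapped control (0.11, adjusted p = 0.568).

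ISG15 is a ubiquitin-like protein that UBE2L6 and the ligase HERC5 attach to other proteins and that USP18 removes. ISG15 had 14.5, 17.0 and 17.9 CPM with sts vesicles, 8.57, 6.09 and 7.05 CPM with ddp vesicles and 6.18, 6.22 and 6.04 CPM in control, with sts clear of both other groups (log2 fold change 1.42, SE 0.157, adjusted p = 1.07e-08). UBE2L6 had 36.9, 36.0 and 41.7 CPM with sts vesicles, 30.1, 32.5 and 31.1 CPM with ddp vesicles and 20.8, 20.7 and 21.4 CPM in control, and its 3 groups did not overlap (log2 fold change 0.87, SE 0.0973, adjusted p = 1.34e-08). HERC6 was higher at 0.40 (adjusted p = 0.0185). That call was lost without sts replicate 1 (adjusted p = 0.0996), control replicate 1 (0.0916) or control replicate 2 (0.0782). HERC5 did not pass (0.02, adjusted p = 0.927). USP18, the deconjugating enzyme that also restrains the type I receptor, had 8.34, 9.44 and 8.87 CPM with sts vesicles, 13.9, 14.6 and 16.6 CPM with ddp vesicles and 12.0, 13.2 and 14.8 CPM in control, and every sts library lay below every other library (log2 fold change −0.58, SE 0.140, adjusted p = 0.00138). Its near-identical copy USP41 had at most 1 count in any library, and the sources used here do not say how reads were divided between the copies.

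The guanylate-binding proteins, GTPases known best as interferon gamma targets, were all called higher. GBP2 had 16.0, 19.6 and 17.2 CPM with sts vesicles, 5.38, 5.42 and 7.62 CPM with ddp vesicles and 6.05, 7.11 and 5.90 CPM in control (log2 fold change 1.47, SE 0.161, adjusted p = 8.57e-09). GBP3 had 19.6, 16.5 and 20.3 CPM with sts vesicles, 8.13, 8.29 and 9.91 CPM with ddp vesicles and 10.3, 10.9 and 8.54 CPM in control (log2 fold change 0.92, SE 0.141, adjusted p = 4.1e-06). In both, sts stood apart and ddp overlapped control. GBP1, which is close in sequence to GBP3, was higher at 1.58 (adjusted p = 0.00434) with few reads, so its counts are uncertain.

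SP100, a nuclear body protein, had 65.1, 68.3 and 71.2 CPM with sts vesicles, 41.3, 49.0 and 43.1 CPM with ddp vesicles and 44.1, 48.9 and 39.8 CPM in control (log2 fold change 0.62, SE 0.0898, adjusted p = 1.42e-06), and its sts libraries lay above all others. TRIM21, the cytosolic antibody receptor, was higher at 0.35 (adjusted p = 0.0158), a call lost without sts replicate 1 (adjusted p = 0.0503), sts replicate 2 (0.0633), control replicate 2 (0.131) or control replicate 3 (0.0918). TRIM22 and TRIM25 did not pass (0.06 and −0.12).
Of the PARP group, which modify proteins with ADP-ribose, PARP10 (0.88, adjusted p = 0.015), PARP12 (0.45, adjusted p = 0.00557) and the ubiquitin ligase DTX3L (0.36, adjusted p = 0.00365) were higher. The PARP10 call was lost without sts replicate 1 (0.0555), sts replicate 2 (0.0547), control replicate 2 (0.0573) or control replicate 3 (0.0778), all adjusted p, and that of PARP12 without sts replicate 1 (0.0697). PARP9, the partner of DTX3L, had 0.09 (adjusted p = 0.56) and PARP14 0.18 (adjusted p = 0.0697), neither past the threshold.

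Of the RNA helicases, IFIH1, the sensor of long double-stranded RNA also called MDA5, had 8.20, 7.56 and 8.02 CPM with sts vesicles, 5.94, 5.97 and 6.80 CPM with ddp vesicles and 5.14, 4.51 and 3.82 CPM in control and was higher (log2 fold change 0.82, SE 0.190, adjusted p = 0.000957). DDX60 (0.36, adjusted p = 0.0727) and DDX60L (0.02, adjusted p = 0.892) did not pass. IFITM3, which blocks viral entry from endosomes, was higher at 0.80 (adjusted p = 0.00207), although 21.3% of its exon bases are shared with a gene on the opposite strand and strand use in counting is not stated. IFITM2 was higher at 0.30 (adjusted p = 0.019). Its call was lost without sts replicate 1 (adjusted p = 0.0652), sts replicate 2 (0.129), control replicate 1 (0.0637) or control replicate 2 (0.183, with a log2 fold change of 0.20), and 22.7% of its exon bases overlap IFITM1. IFITM1 did not pass (0.56, adjusted p = 0.355).
IFI6 had 16.3, 22.7 and 19.3 CPM with sts vesicles, 8.69, 10.8 and 7.69 CPM with ddp vesicles and 14.1, 10.4 and 9.65 CPM in control (log2 fold change 0.77, SE 0.156, adjusted p = 0.000284). LGALS3BP had 153, 162 and 136 CPM with sts vesicles, 109, 126 and 107 CPM with ddp vesicles and 116, 99.9 and 115 CPM in control (log2 fold change 0.45, SE 0.0838, adjusted p = 6.61e-05). In both, all sts libraries lay above all others. IFI44 was higher at 2.74 (adjusted p = 0.00046) on 25, 24 and 18 counts in sts against 5, 4 and 1 in control, and IFI35 did not pass (0.20, adjusted p = 0.0637).

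**Figure D2:**
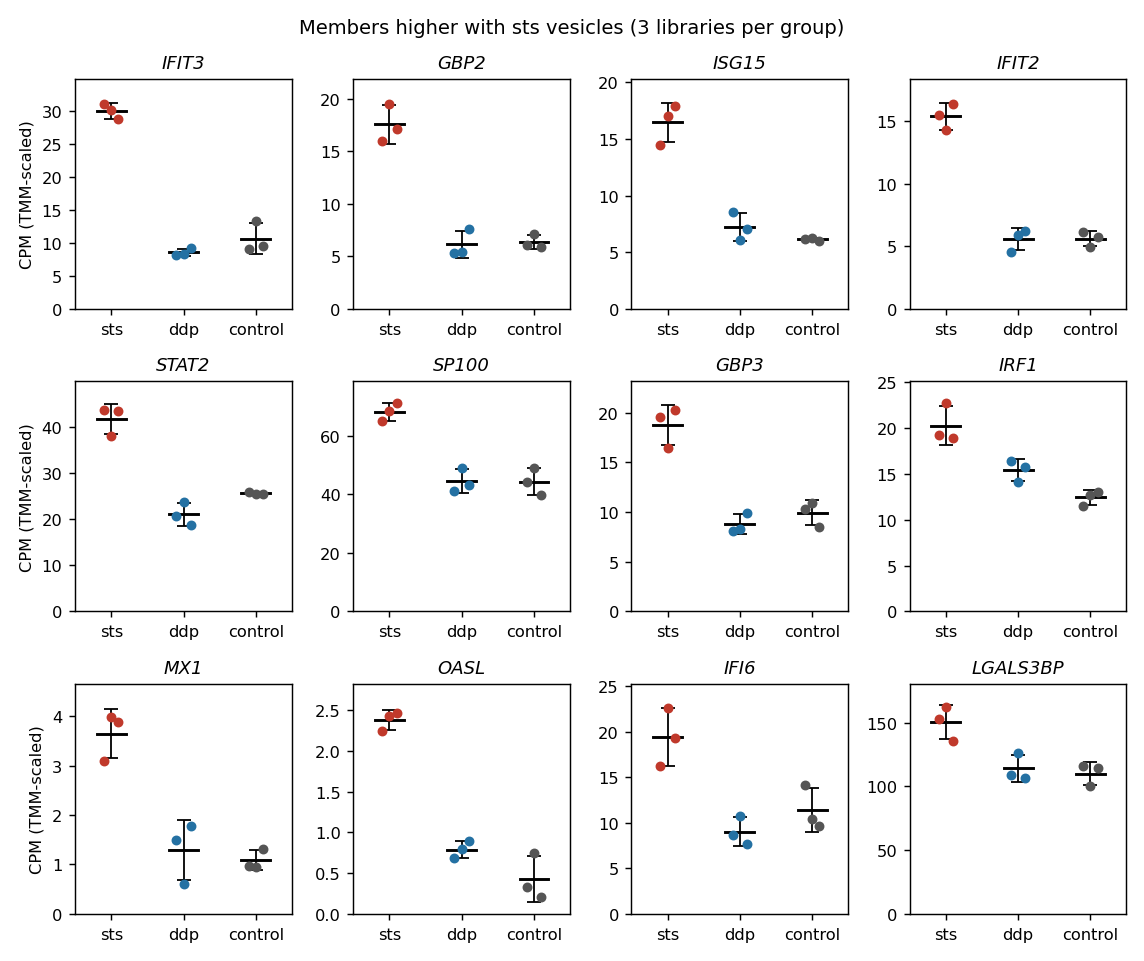
TMM-scaled CPM (y axis, from 0) in each of the 3 libraries (points) of sts, ddp and control (x axis), with mean (line) and SD (bar), for 12 genes called higher with sts vesicles. In each panel the 3 sts points lie above the 3 control points, and for most genes the ddp points overlap control.

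With ddp vesicles, 2 of the 44 tested genes were higher than in control and 2 were lower (4.55% each), on a background of 7.16% of all tested genes higher and 8.32% lower (15.5% in either direction), so neither count stood above the background. Their median log2 fold change was 0.036, against −0.0033 over all genes. Over the 34 genes with counts in every group, 1 was higher and 2 were lower. UBE2L6 rose to the values given above, between those of sts and control (log2 fold change 0.58, SE 0.0977, adjusted p = 5.05e-05). CMPK2 also rose (log2 fold change 1.24, SE 0.403, adjusted p = 0.0314). For CMPK2 significance was lost without control replicate 2 (adjusted p = 0.161), control replicate 3 (0.141), ddp replicate 1 (0.0608), ddp replicate 2 (0.0745) or ddp replicate 3 (0.0542), while without control replicate 1 its log2 fold change was 1.96. In all, this CMPK2 call was lost in 8 of the 16 alternative settings that tested it, DESeq2 among them.
OAS1 fell, with 94.3, 101 and 91.3 CPM with ddp vesicles, against 135, 141 and 156 CPM in control (log2 fold change −0.59, SE 0.0802, adjusted p = 1.32e-06), and the ddp libraries lay below every other library. SAMD9, a cytoplasmic restriction factor for poxviruses, also fell, with 12.7, 14.9 and 14.3 CPM with ddp vesicles, against 19.3, 21.7 and 18.8 CPM in control (log2 fold change −0.51, SE 0.120, adjusted p = 0.0026). The other 40 tested genes did not pass. Those nearest to the threshold were STAT2 (−0.28, adjusted p = 0.0602), IFITM3 (0.54, adjusted p = 0.0664), HERC5 (0.36, adjusted p = 0.0719) and IFI35 (−0.23, adjusted p = 0.0719). Libraries did not overlap for 9 genes that were higher and 6 that were lower, on backgrounds of 15.8% and 16.4%.

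**Figure D3:**
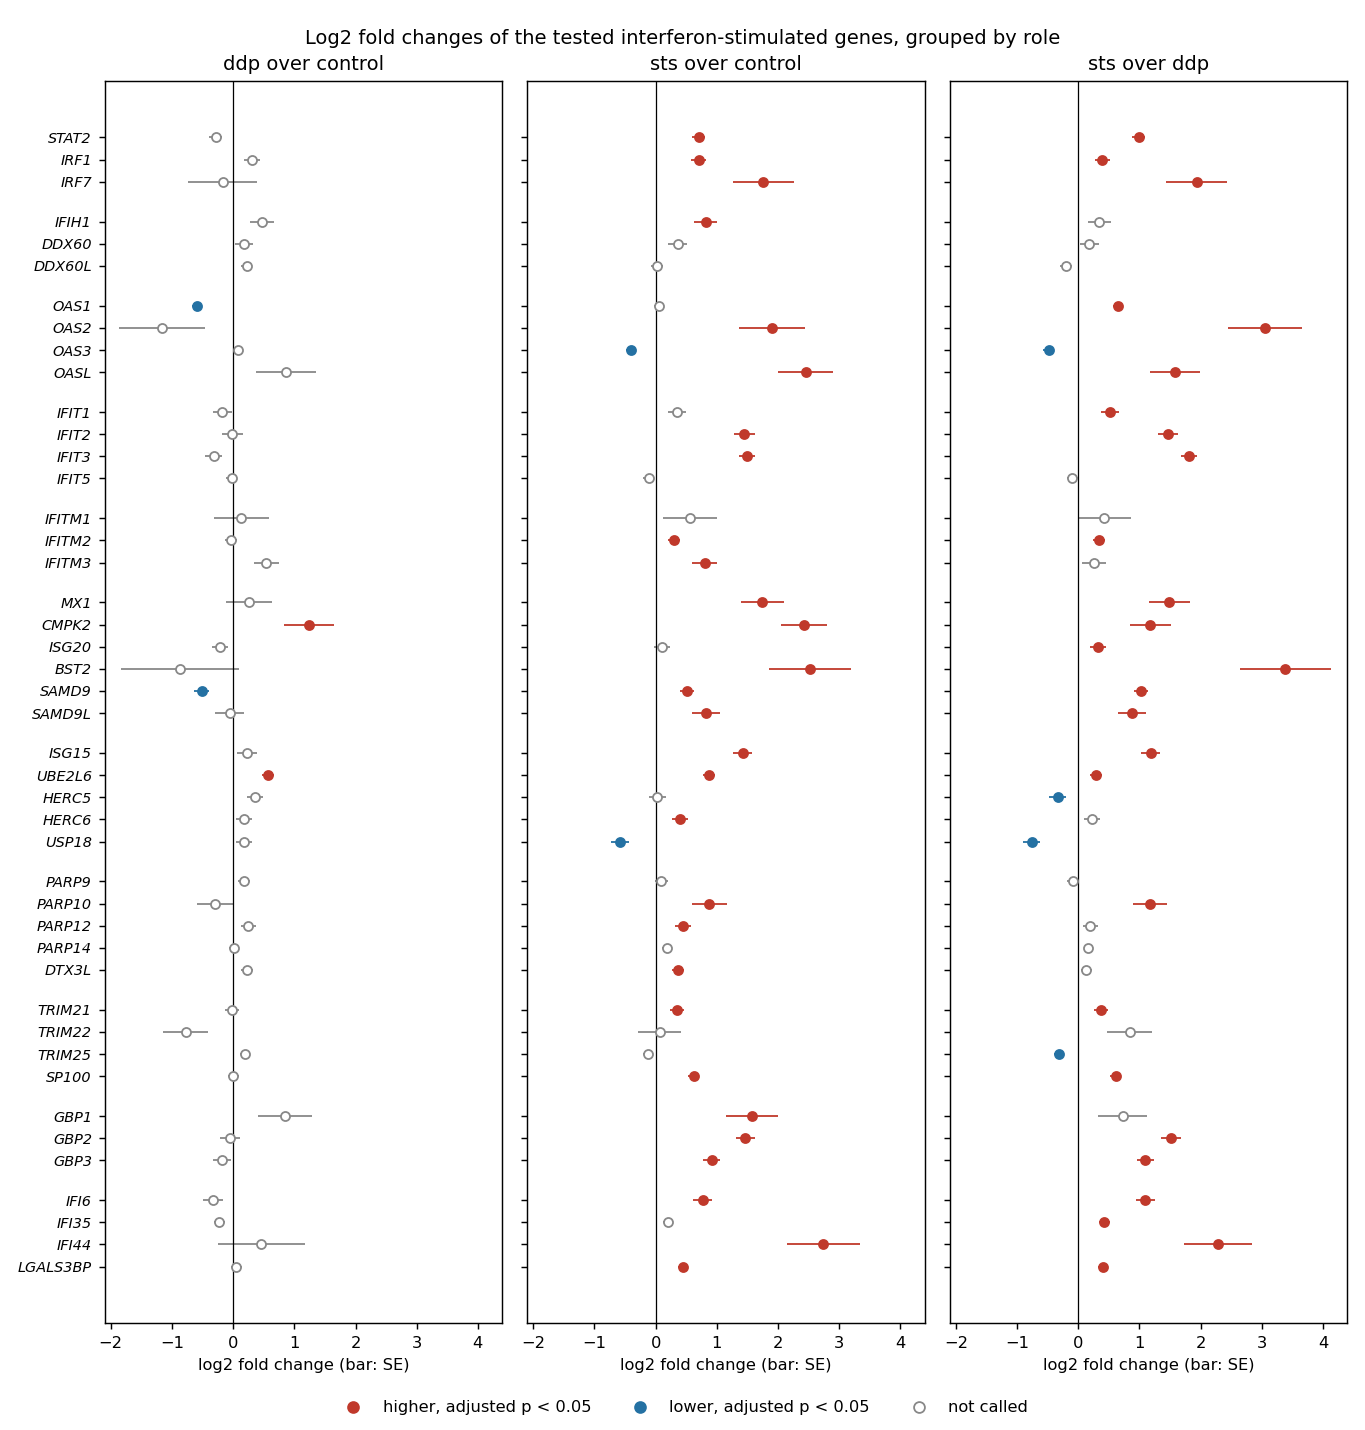
Log2 fold change and SE (x axis) of the 44 tested genes (y axis, grouped by role) for ddp over control, sts over control and sts over ddp, with filled red points for higher, filled blue for lower and open points for not called. In the ddp panel 4 points are filled, and in the panels with sts most filled points lie to the right of 0.

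Set directly against each other, sts vesicles gave higher levels than ddp vesicles for 27 of the 44 tested genes (61.4%) and lower levels for 4 (9.09%), on a background of 20.2% higher and 19.5% lower (39.7% in either direction). The median log2 difference was 0.475, against 0.0268 over all genes. Over the 34 genes with counts in every group, 20 were higher and 4 lower. This comparison and those with control share libraries, so their calls are not independent of each other. The differences with the smallest adjusted p were those of IFIT3 (log2 fold change 1.81, SE 0.135, adjusted p = 1.45e-12), STAT2 (log2 fold change 0.99, SE 0.102, adjusted p = 1.67e-09), GBP2 (log2 fold change 1.52, SE 0.160, adjusted p = 2.81e-09), IFIT2 (log2 fold change 1.47, SE 0.164, adjusted p = 8.74e-09), SAMD9 (log2 fold change 1.02, SE 0.118, adjusted p = 1.67e-08) and OAS1 (log2 fold change 0.64, SE 0.0802, adjusted p = 6.93e-08). GBP3 (1.10, adjusted p = 1.47e-07) and ISG15 (1.19, adjusted p = 1.56e-07) followed.
For STAT2, SAMD9 and OAS1 the distance between the vesicle groups was wider than that between sts and control, since their ddp libraries lay below control. The effectors MX1 (1.49, adjusted p = 0.000607), OASL (1.58, adjusted p = 0.00202) and CMPK2 (1.18, adjusted p = 0.00558) were also higher in sts than in ddp. OAS2 (3.06, adjusted p = 0.000122, 2.46 without ddp replicate 2), BST2 (3.39, adjusted p = 0.000385) and IFI44 (2.28, adjusted p = 0.00129, 2.99 without ddp replicate 1) had the widest fitted gaps but at most 9 counts in any ddp library.

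IFIT1 (log2 fold change 0.52, SE 0.147, adjusted p = 0.00468), IFI35 (log2 fold change 0.43, SE 0.0852, adjusted p = 0.00012) and ISG20 (log2 fold change 0.32, SE 0.127, adjusted p = 0.0418) differed between the vesicle groups although neither group passed against control. IFI35 had 47.1, 48.0 and 46.2 CPM with sts vesicles, 34.4, 36.9 and 33.5 CPM with ddp vesicles and 40.7, 41.4 and 40.5 CPM in control, with sts above control and ddp below it by margins that did not pass. The ISG20 call was lost without sts replicate 2 (adjusted p = 0.0515), sts replicate 3 (0.283, with a log2 difference of 0.19), ddp replicate 1 (0.0791), ddp replicate 2 (0.124) or ddp replicate 3 (0.0754). In all, it was lost in 14 of 18 alternative settings, DESeq2 among them. Calls were also lost for IRF1 without sts replicate 2 (0.0791) or ddp replicate 2 (0.0674), for IFITM2 without sts replicate 2 (0.0577), for TRIM21 without ddp replicate 3 (0.053) and for UBE2L6 without sts replicate 3 (0.0903) or ddp replicate 1 (0.0629). IFIH1, IFITM3, HERC6, PARP12, DTX3L and GBP1 were called higher with sts vesicles against control and did not pass between the vesicle groups, with log2 differences of 0.35, 0.26, 0.22, 0.19, 0.13 and 0.72.

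The genes that moved against the rest were OAS3, USP18, TRIM25 and HERC5, all lower in sts than in ddp. OAS3 (log2 fold change −0.48, SE 0.0866, adjusted p = 2.99e-05) and USP18 (log2 fold change −0.76, SE 0.138, adjusted p = 4.1e-05) were also lower in sts than in control, and their ddp libraries overlapped control. TRIM25, a ubiquitin ligase for the RNA sensor RIG-I, had 43.0, 39.5 and 43.9 CPM with sts vesicles, 51.9, 53.2 and 52.2 CPM with ddp vesicles and 49.7, 46.2 and 41.6 CPM in control, with sts overlapping control and ddp above both (log2 fold change −0.32, SE 0.0867, adjusted p = 0.00381). HERC5 had 10.9, 9.98 and 10.6 CPM with sts vesicles, 13.4, 12.9 and 13.4 CPM with ddp vesicles and 10.7, 10.9 and 9.37 CPM in control, again with ddp above the other 2 groups (log2 fold change −0.34, SE 0.136, adjusted p = 0.0481). The HERC5 call was lost without sts replicate 1 (adjusted p = 0.0621), sts replicate 2 (0.13), sts replicate 3 (0.0783), ddp replicate 1 (0.105), ddp replicate 2 (0.0584) or ddp replicate 3 (0.103). In all, it was lost in 10 of 18 alternative settings, DESeq2 among them.
Among the 51 genes, SAMD9 was the 1 called in opposite directions against control, higher with sts vesicles (log2 fold change 0.51, SE 0.116, adjusted p = 0.000748) and lower with ddp vesicles. Its libraries had 30.0, 24.4 and 30.8 CPM with sts vesicles, 12.7, 14.9 and 14.3 CPM with ddp vesicles and 19.3, 21.7 and 18.8 CPM in control, and the 3 groups did not overlap. The fall with ddp vesicles did not pass with limma on log2(FPKM + 1) without a filter (−0.36, adjusted p = 0.102). Its neighbour in family, SAMD9L, had 7.08, 5.19 and 5.77 CPM with sts vesicles, 3.31, 3.72 and 2.80 CPM with ddp vesicles and 3.25, 3.97 and 2.98 CPM in control and was not called with ddp vesicles (−0.05, adjusted p = 0.919). UBE2L6 and CMPK2 were the 2 genes called higher with both kinds of vesicle.

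**Figure D4:**
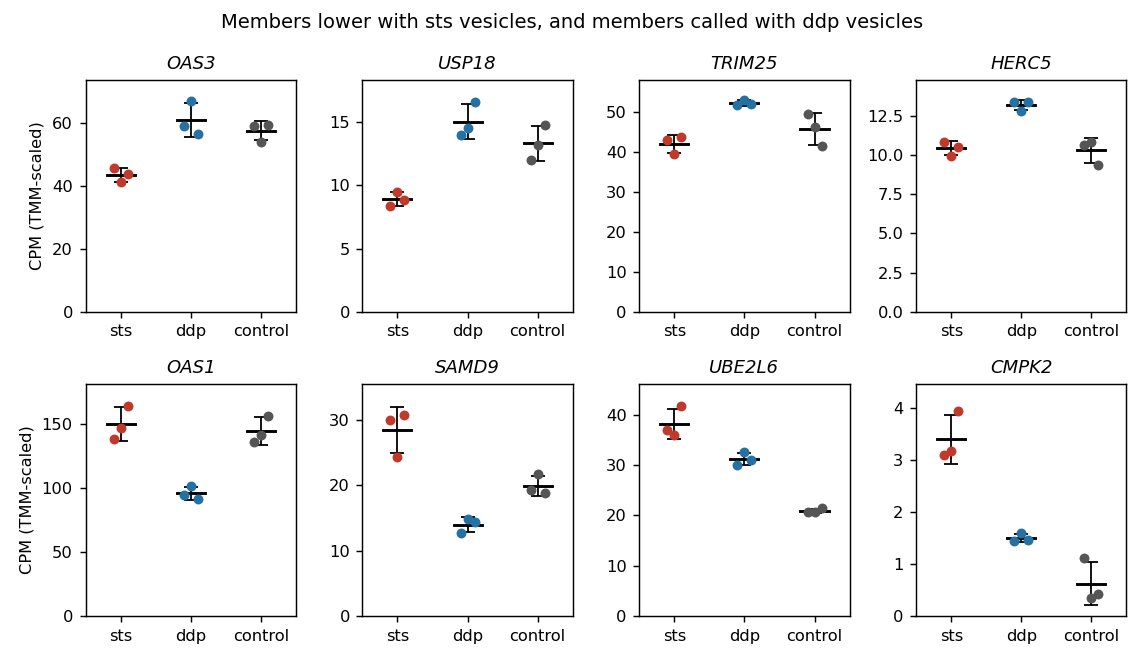
TMM-scaled CPM (y axis, from 0) in each library (points) of sts, ddp and control (x axis), with mean (line) and SD (bar), for the 4 genes lower in sts than in ddp (top row) and the 4 genes called with ddp vesicles against control (bottom row). OAS3 and USP18 have their 3 sts points lowest, OAS1 and SAMD9 their 3 ddp points lowest, and UBE2L6 and CMPK2 step down through sts, ddp and control.

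Among the 44 tested genes 7 passed in no comparison between groups: DDX60, DDX60L, IFIT5, IFITM1, PARP9, PARP14 and TRIM22. The 7 genes not tested had few reads. IFI27 had counts of 2, 16 and 29 in sts, 0, 1 and 1 in ddp and 7, 2 and 6 in control, and MX2 had 14, 1 and 0 in sts, 0 in each ddp library and 1 in each control library. RSAD2, or viperin, had 2, 9 and 7 counts in sts, 1, 6 and 6 in ddp and 1, 0 and 2 in control, while CMPK2, on the opposite strand of chromosome 2 and overlapping it at one end, was among the genes that rose. IFI44L had 4, 4 and 8 counts in sts, 1, 2 and 0 in ddp and 0, 1 and 0 in control. IRF9, the partner of STAT2, had 0, 4 and 3 counts in sts, 0, 4 and 0 in ddp and 1, 6 and 2 in control, but 48.4% of its exon bases are shared with another gene on the same strand, so its counts are uncertain. EPSTI1 had 4, 9 and 0 counts in sts, 1, 0 and 1 in ddp and 1, 3 and 3 in control. XAF1 had at most 2 counts in any library. These counts were too low for a test.

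Beside these genes, 72 others of the interferon pathway, from ligands and receptors to further targets, were listed and 52 were tested. With sts vesicles 18 of the 52 were higher and 5 lower than in control, on backgrounds of 15.9% and 16.8% of all tested genes. With ddp vesicles 4 were higher and 2 lower than in control, on backgrounds of 7.16% and 8.32%. Against ddp, sts vesicles gave 23 higher and 9 lower, on backgrounds of 20.2% and 19.5%. None of the lower counts stood above its background, and the 4 higher with ddp vesicles were near theirs.
Of 10 interferon ligand genes, 8 had too few reads to be tested, among them IFNB1, IFNG and IFNL3, which were listed at 0 in every library. IFNE, an epithelial type I interferon, had 9.54, 9.85 and 9.01 CPM with sts vesicles, 2.88, 1.83 and 2.48 CPM with ddp vesicles and 3.25, 2.80 and 4.09 CPM in control, with sts clear of both other groups (log2 fold change 1.48, SE 0.216, adjusted p = 1.72e-06 over control, and log2 fold change 1.98, SE 0.223, adjusted p = 9.69e-09 over ddp). IFNE lies inside the span of MIR31HG on chromosome 9 but shares no exon bases with it in GENCODE v29. MIR31HG counts were 237, 267 and 273 in sts, 174, 184 and 163 in ddp and 148, 179 and 159 in control. IFNA1 had counts of 22, 21 and 29 in sts, 2, 6 and 3 in ddp and 13, 0 and 0 in control (log2 fold change 2.49, SE 0.750, adjusted p = 0.0146), and it passed the filter on low counts through the sts libraries alone. The IFNA1 call was lost without sts replicate 3 (adjusted p = 0.0581), and without control replicate 1 the control libraries left held 0 counts, so that the fitted value of 7.65 depends on the prior count. Its near-identical copy IFNA13 was listed at 0 in every library.

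Among 6 receptor chains, IFNGR1, the ligand-binding chain for interferon gamma, had 142, 145 and 156 CPM with sts vesicles, 64.1, 64.5 and 70.6 CPM with ddp vesicles and 59.3, 68.3 and 64.4 CPM in control (log2 fold change 1.21, SE 0.0801, adjusted p = 1.02e-13) and IFNLR1, the type III chain, was higher at 0.68 (adjusted p = 0.0393), a call lost without sts replicate 1 (adjusted p = 0.207), control replicate 2 (0.192) or control replicate 3 (0.0607). The IFNLR1 call was lost in 8 of the 16 alternative settings that tested it. The type I chains IFNAR1 (0.18, adjusted p = 0.0839) and IFNAR2 (0.28, adjusted p = 0.434) did not pass against control. Against ddp, 4 of the 6 chains were higher with sts vesicles, on a background of 20.2%. IFNAR1 was among them (0.30, adjusted p = 0.00229), and IFNAR2 was not (0.27, adjusted p = 0.436).
The kinase JAK1 (log2 fold change −0.53, SE 0.0782, adjusted p = 2.12e-06) and STAT3 (log2 fold change −0.52, SE 0.0763, adjusted p = 2.14e-06), the main mediator of interleukin-6 signals, were lower with sts vesicles. STAT3 had 81.1, 75.7 and 78.6 CPM with sts vesicles, 134, 137 and 124 CPM with ddp vesicles and 113, 107 and 116 CPM in control, and its sts libraries lay below all others. Its small rise with ddp vesicles (0.23, adjusted p = 0.0301) was lost without ddp replicate 1 (adjusted p = 0.107), ddp replicate 2 (0.124), control replicate 1 (0.0726), control replicate 2 (0.139) or control replicate 3 (0.0543).
SOCS3, a feedback inhibitor of JAK signalling, had 9.54, 10.1 and 8.45 CPM with sts vesicles, 15.5, 19.6 and 16.3 CPM with ddp vesicles and 9.50, 8.28 and 7.77 CPM in control, so its ddp libraries stood above sts and control (log2 fold change 1.01, SE 0.143, adjusted p = 3.31e-06). IRF2BP2, a partner of IRF2 in repression, fell with ddp vesicles (−0.34, adjusted p = 0.0107), a call lost without ddp replicate 1 (adjusted p = 0.0632), ddp replicate 3 (0.0929) or control replicate 3 (0.0741). It was higher with sts vesicles than in control (0.28, adjusted p = 0.0197), a call lost without sts replicate 1 (adjusted p = 0.0942), sts replicate 2 (0.0614), control replicate 1 (0.113) or control replicate 2 (0.0894), and higher in sts than in ddp (0.62, adjusted p = 3.01e-06).

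**Figure D5:**
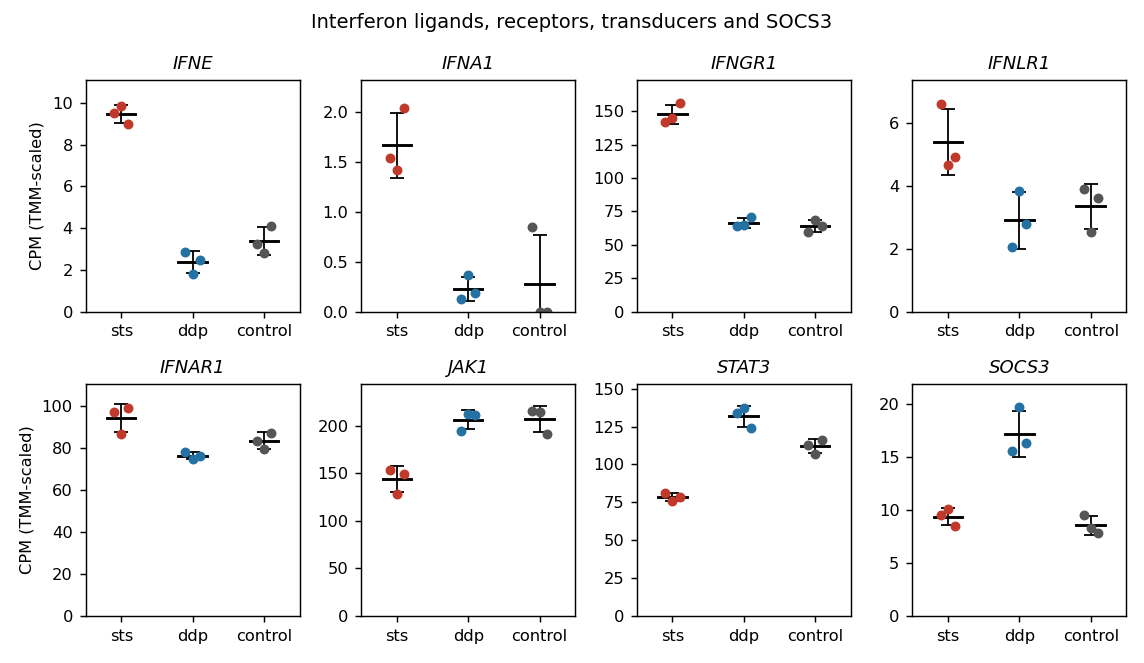
TMM-scaled CPM (y axis, from 0) in each library (points) of sts, ddp and control (x axis), with mean (line) and SD (bar), for interferon ligands, receptor chains, JAK and STAT genes and SOCS3. IFNE and IFNGR1 are highest in the 3 sts libraries, JAK1 and STAT3 lowest there, and SOCS3 is highest in the 3 ddp libraries.

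Of 24 further interferon-induced genes, 22 were tested. With sts vesicles 8 were higher (36.4%) and 3 lower (13.6%), on backgrounds of 15.9% and 16.8%, so the lower count did not stand above the background. With ddp vesicles 1 was higher and 1 lower (4.55% each), on backgrounds of 7.16% and 8.32%, so neither count did. IFI16, a nuclear DNA sensor, had 34.8, 35.4 and 39.0 CPM with sts vesicles, 10.1, 8.35 and 8.70 CPM with ddp vesicles and 6.18, 7.87 and 6.25 CPM in control, with sts far above both other groups (log2 fold change 2.43, SE 0.131, adjusted p = 8.93e-16). SLFN5, a nuclear member of the Schlafen family, had 123, 103 and 114 CPM with sts vesicles, 40.8, 45.2 and 45.9 CPM with ddp vesicles and 36.6, 39.5 and 44.6 CPM in control (log2 fold change 1.50, SE 0.0892, adjusted p = 8.28e-15). PML, the organiser of nuclear bodies and a partner of SP100, had 18.7, 17.6 and 13.9 CPM with sts vesicles, 9.25, 9.45 and 7.75 CPM with ddp vesicles and 6.57, 5.88 and 8.88 CPM in control (log2 fold change 1.23, SE 0.162, adjusted p = 2.56e-07). Against these, TRIM5, a retroviral restriction factor (−0.60, adjusted p = 8.07e-05), TRIM14 (−0.54, adjusted p = 0.000444) and PNPT1, a mitochondrial exoribonuclease (−0.43, adjusted p = 0.000126), were lower with sts vesicles. With ddp vesicles the scramblase PLSCR1 fell (log2 fold change −0.42, SE 0.0789, adjusted p = 0.000187) and IFI16 rose (0.42, adjusted p = 0.0386), though IFI16 did not pass without ddp replicate 1 (adjusted p = 0.187), ddp replicate 3 (0.0548), control replicate 1 (0.15) or control replicate 3 (0.151). In all, this rise of IFI16 did not pass in 12 of 18 alternative settings, DESeq2 among them.
Of 9 genes linked to interferon gamma, 3 were tested. WARS1, a tryptophanyl-tRNA synthetase, rose with ddp vesicles (log2 fold change 0.45, SE 0.0798, adjusted p = 8.35e-05) and its ddp libraries lay above every sts library. CD274, which encodes the checkpoint ligand PD-L1, was higher with sts vesicles (1.24, adjusted p = 0.0202), a call lost without sts replicate 3 (adjusted p = 0.139), control replicate 1 (0.139) or control replicate 3 (0.0616). The chemokine genes CXCL9, CXCL10 and CXCL11 had too few reads to be tested. Of 11 genes of nucleic acid sensing, 8 were tested, and IKBKE, a kinase that activates IRF3, rose with sts vesicles (log2 fold change 0.87, SE 0.117, adjusted p = 3.5e-07), while the adaptor gene STING1 was listed at 0 in every library.

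Markers of the line and of other cells moved with the groups as well. Of 5 epithelial markers, 4 were lower with sts vesicles than in control and KRT19 was higher, and the summed FPKM of the list was 1386 to 1598 in sts, 1249.8 to 1346 in ddp and 2170.2 to 2387 in control. Of 8 immune cell markers, the 2 tested, CD14 (0.82, adjusted p = 6.07e-05) and ITGAM (1.03, adjusted p = 0.000898), were higher with sts vesicles, and their list summed to 9.65 to 12.7 FPKM in sts, 7.18 to 7.73 in ddp and 5.39 to 7.76 in control. Most of that sum was CD14, with 8.55 to 11.7 FPKM in sts. The defining immune marker PTPRC had 3, 0 and 0 counts in sts and 0 in all other libraries, and MS4A1 was at 0 throughout. Of 4 markers of plasmacytoid dendritic cells, IL3RA was higher with sts vesicles (0.97, adjusted p = 9.22e-08), TCF4 was lower (−0.47, adjusted p = 0.0248), CLEC4C was at 0 and LILRA4 had 1 count in all. That list summed to 15.2 to 16.7 FPKM in sts, 6.22 to 7.61 in ddp and 7.57 to 9.0 in control. Nearly all of that sum was IL3RA, with a mean of 15.7 FPKM in sts, 6.63 in ddp and 8.07 in control. The sum therefore follows IL3RA and not the list as a whole. Of 4 endothelial markers, 2 were tested. PECAM1 had 31, 50 and 28 counts in sts, 11, 6 and 4 in ddp and 1, 2 and 4 in control (3.92, adjusted p = 1.08e-06 for sts over control), and it passed the filter on low counts through the sts libraries alone. CDH5 did not pass the test (−0.46, adjusted p = 0.487), and KDR had 0 counts in every sts library. For fibroblasts, 1 of 5 markers was tested and did not pass. The part of these markers in the levels of the interferon-stimulated genes was not tested.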

How the data were processed

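The 9 libraries were made with NEBNext Ultra reagents, per the labels' protocols, and strand is not stated there. Per the submitters' processing notes, featureCounts 1.5.0-p3 (Subread), StringTie 1.3.3b, HISAT2 2.0.5, limma and the build hg38 were used, with no roles given. The authors deposited whole-number counts per gene, not normalized, and FPKM values scaled by gene length and library total. Rows without an Ensembl ID, 705 in all, held 0.313% to 0.357% of counts and went through the same filter and tests as the others. Groups came from the sample titles. Symbols came from a table of 61399 matched Ensembl IDs, and exon overlap from GENCODE v29. Counts were fitted with edgeR's quasi-likelihood test, robust (edgeR 4.0.16, R 4.3.3), all libraries together, TMM scaling and edgeR's default filter, and p-values were Benjamini-Hochberg adjusted over 16947 genes with a threshold of 0.05. "Called", "rose" and "fell" mean past that threshold. CPM values are TMM-scaled. SE is the log2 fold change divided by the root of its F statistic. The fit was tested on simulated data with changes placed only in genes above a minimum mean count, so that test does not cover genes with few reads. No 2 replicates agreed within sampling noise (chi-square per degree of freedom 5.11 to 7.67). Alternatives used DESeq2 1.42.0 and limma 3.58.1. The genes and lists were chosen with earlier results of these data known. Full values are given for each comparison's 8 smallest adjusted p per direction, genes called against the majority, the 5 highest by FPKM and 4 upstream genes. Intervals are not given, and SDs cover these libraries only.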

Additional observations from a re-analysis of the deposited data

Results flagged for a closer look

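SAMD9 moved in opposite directions with the 2 kinds of vesicle. It was higher with sts vesicles than in control (log2 fold change 0.51, SE 0.116, adjusted p = 0.000748) and lower with ddp vesicles than in control (log2 fold change −0.51, SE 0.120, adjusted p = 0.0026). The difference itself, sts against ddp, was 1.02 on the log2 scale (adjusted p = 1.67e-08, edgeR's quasi-likelihood test), and the 3 libraries of each group did not overlap with those of the others. The fall with ddp vesicles did not pass with limma on log2(FPKM + 1) without a filter (−0.36, adjusted p = 0.102). The cause was not tested.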

How the results depend on the processing

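No direction was reversed under any alternative run. Of the settings that tested single called interferon-stimulated genes, 61 of 70 kept the call for ddp against control. For sts against control 506 of 536 did, and for sts against ddp 499 of 538. In these comparisons 2 of 4, 22 of 31 and 23 of 31 genes kept their call in every setting that tested them. Genes with few reads were filtered out of some settings, so that BST2 was tested in 15 and MX1, OASL and IFI44 in 16, against 18 for IFIT3. The 2 genes higher with ddp vesicles became 1 with DESeq2, with limma on log2(FPKM + 1) without a filter and with the compared groups fitted alone, and 1 to 2 with each library left out. With sts vesicles 19 genes, not 29, were higher than control and 16, not 27, higher than ddp with limma on log2(FPKM + 1) and likewise on log2(FPKM + 0.1), where the minimum mean of 1 FPKM left 12647 genes tested and removed the low ones. Leaving out 1 library gave 24 to 29 genes higher and 2 lower for sts against control, 24 to 28 higher and 3 to 4 lower for sts against ddp, and 2 to 3 lower for ddp against control. Over all genes 2623 were called for ddp against control, 1624 and 1622 with limma at pseudocounts of 1 and 0.1, and 992 without a filter. For sts against control 5552 genes were called, and 3617 with limma without a filter. Upper-quartile scaling moved the share of higher calls, with 2977 higher and 2596 lower for sts against control and 3732 higher and 2974 lower for sts against ddp, against 2698 and 2854, and 3422 and 3299. Deviations of same-numbered replicates had correlations from −0.221 to 0.146, and those of different-numbered replicates from −0.126 to 0.159. No pairing by number was seen, but with 3 libraries per group this check cannot exclude it. With the replicate block, 2 genes were higher and 2 lower for ddp against control, 29 and 2 for sts against control, and 26 and 3 for sts against ddp. Depth limits the genes with few reads, IRF7, OAS2, BST2, IFI44, OASL, CMPK2, GBP1, MX1, IFITM1, TRIM22 and the 7 not tested.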
